A study of Homo sapiens with 8 samples.

Results

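The 51 genes described here encode the machinery that copies DNA and supplies it with deoxynucleotides, and they were read in T47D cells, a long-established human breast cancer line of luminal type that depends on the estrogen receptor. They were taken by name from a list that was drawn up with earlier results of these data known. All 51 were measured, and they stand among 18417 genes that the array reads through at least 1 probe set with a single gene symbol. Each gene was represented by its probe set with the highest mean over the arrays. The study asked how silencing of 17β-HSD1, which converts estrone into estradiol (E2) and is encoded by HSD17B1, alters gene expression with and without added E2. RNA was hybridised to 8 Affymetrix Human Gene 1.0 ST arrays, 2 in each of 4 groups: cells labelled as given 17β-HSD1 siRNA (called silenced here) and E2, silenced cells with vehicle, control siRNA cells given E2, and control siRNA cells given vehicle. The 17β-HSD1 siRNA was a mixture of 3 duplexes and the control was a scramble siRNA, both given at 200 nM. All groups were held in insulin-containing, charcoal-stripped medium from 2 days before transfection, and 48 h after transfection received 1 nM E2 or ethanol for a further 2 days. The groups therefore share steroid deprivation, insulin and transfection, and all come from a single cell line.

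In G1, the origin recognition complex with CDC6 and CDT1 loads the MCM2-7 ring onto DNA, a step called licensing. At the start of S phase CDC45, GINS and MCM10 turn the ring into a working helicase, primase and the replicative polymerases synthesise DNA, and the PCNA clamp, set in place by the RFC loader, holds the polymerases on the template. Ribonucleotide reductase, thymidylate synthase and thymidine kinase supply the deoxynucleotides. Many of these genes are transcribed at the G1/S boundary under E2F factors, and in estrogen-dependent breast cancer lines estradiol is known for driving cells from G1 into S phase.

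Promoter windows of 4 of these genes are printed here, because CDC6, PCLAF and TYMS changed with both treatments and MCM6 held the most E2F-type matches of the 43 genes with a promoter entry. Each is a RefSeq window of GRCh38.p14 that runs from 250 bases before to 50 bases after the annotated start, 5′ to 3′ on the gene's strand, and capitals mark the E2F-type matches (TTTCGCGC, TTTGGCGC, TTTCCCGC or TTTGCCGC on either strand). CDC6 lies at chr17:40287629-40287928 on the + strand, PCLAF at chr15:64381392-64381691 on the - strand, TYMS at chr18:657403-657702 on the + strand and MCM6 at chr2:135876394-135876693 on the - strand. PCLAF has 2 windows, and the other holds no such match.
CDC6: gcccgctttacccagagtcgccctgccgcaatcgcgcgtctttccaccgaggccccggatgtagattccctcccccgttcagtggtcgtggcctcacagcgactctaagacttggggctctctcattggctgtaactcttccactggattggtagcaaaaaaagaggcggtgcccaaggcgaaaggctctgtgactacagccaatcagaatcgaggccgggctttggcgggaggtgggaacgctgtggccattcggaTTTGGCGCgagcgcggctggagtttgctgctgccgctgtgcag
PCLAF: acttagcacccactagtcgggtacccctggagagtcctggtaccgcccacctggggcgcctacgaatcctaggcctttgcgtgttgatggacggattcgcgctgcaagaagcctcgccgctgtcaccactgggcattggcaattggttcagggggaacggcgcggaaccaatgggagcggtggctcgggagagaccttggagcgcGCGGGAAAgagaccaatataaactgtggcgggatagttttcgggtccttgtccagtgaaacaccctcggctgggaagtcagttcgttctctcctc
TYMS: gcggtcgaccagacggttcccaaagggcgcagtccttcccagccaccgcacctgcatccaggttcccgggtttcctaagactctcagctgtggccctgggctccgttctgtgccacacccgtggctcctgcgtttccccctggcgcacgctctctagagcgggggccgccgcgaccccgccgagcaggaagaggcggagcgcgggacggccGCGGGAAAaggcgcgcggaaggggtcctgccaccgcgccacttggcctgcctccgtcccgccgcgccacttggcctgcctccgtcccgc
MCM6: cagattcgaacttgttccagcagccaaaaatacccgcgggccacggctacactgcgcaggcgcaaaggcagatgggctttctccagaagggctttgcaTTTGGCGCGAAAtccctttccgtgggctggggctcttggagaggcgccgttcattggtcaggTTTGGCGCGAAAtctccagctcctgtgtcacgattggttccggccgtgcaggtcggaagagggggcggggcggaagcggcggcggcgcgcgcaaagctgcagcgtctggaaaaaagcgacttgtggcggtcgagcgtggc
The CDC6 match lay at bases 258 to 265 of its window, just past the start, the PCLAF match at bases 206 to 213 and the TYMS match at bases 212 to 219. MCM6 held 4 matches in 2 overlapping pairs, at bases 99 to 110 and 161 to 172, each pair reading as a match on both strands.

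HSD17B1, the targeted gene, had log2 signals of 8.32 and 8.37 with 17β-HSD1 siRNA in E2 and 8.41 and 8.36 with 17β-HSD1 siRNA in vehicle, against 9.12 and 8.56 with control siRNA in E2 and 9.35 and 8.66 with control siRNA in vehicle. The 4 silenced arrays were all below the 4 control arrays, yet the change of -0.56 ± 0.16 did not pass the test (adjusted p = 0.221), so directions assigned to the siRNA below rest on the labels. The 8 luminal epithelial markers measured averaged from 8.68 (ESR1) to 13.4 (KRT8) over the arrays. The highest averages were 7.81 for basal, 8.86 for fibroblast, 7.23 for immune and 6.81 for endothelial markers, so the fibroblast range reached above ESR1. Of 30 markers listed for these cell types 27 were measured, and none was called for E2 or for siRNA averaged over the other factor. Replicate 1 of 17β-HSD1 siRNA with vehicle correlated least with the other arrays, at a mean of 0.973 against 0.981 to 0.988. With 2 arrays per group, the number of arrays limits the precision.

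E2 raised 25 of the 51 genes, averaged over both siRNAs, and lowered none. The raised genes included the licensing factor CDC6 (1.96-fold), the PCNA-associated factor PCLAF (2.12-fold), thymidylate synthase TYMS (2.08-fold) and DTL (2.01-fold), the substrate receptor of a ubiquitin ligase that destroys CDT1 during S phase. All 51 changes were positive, with a median log2 change of 0.54 and a range from 0.04 for RPA3 to 1.08 for PCLAF, while the median over all 21214 probe sets tested was -0.02. The 25 called genes make up 49.0% of the list, against 1.32% of all probe sets called higher with E2 and 0.226% called lower. Because the list was chosen with earlier results of these data known, these shares do not test whether replication genes respond more than others. Their folds ran from 1.43 to 2.12 and their adjusted p-values from 0.00226 to 0.0420 (limma, Benjamini-Hochberg over all probe sets tested, 4 arrays against 4, called below 0.05). All 4 E2 arrays lay above all 4 vehicle arrays for 33 of the 51 genes, 21 of the called ones and 12 of the others, against 2.94% of all probe sets. In bulk RNA, more cells in S phase and more of each transcript per cell cannot be told apart, nor can fewer cells and less transcript where values are lower. Without replicate 1 of 17β-HSD1 siRNA with E2, 10 of the genes and 0.646% of all probe sets were called in either direction, against 1.55% with all arrays. Without replicate 2 of that group the values were 14 genes and 0.57%, and without replicate 2 of control siRNA with E2 they were 13 genes and 0.929%.

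**Figure D1:**
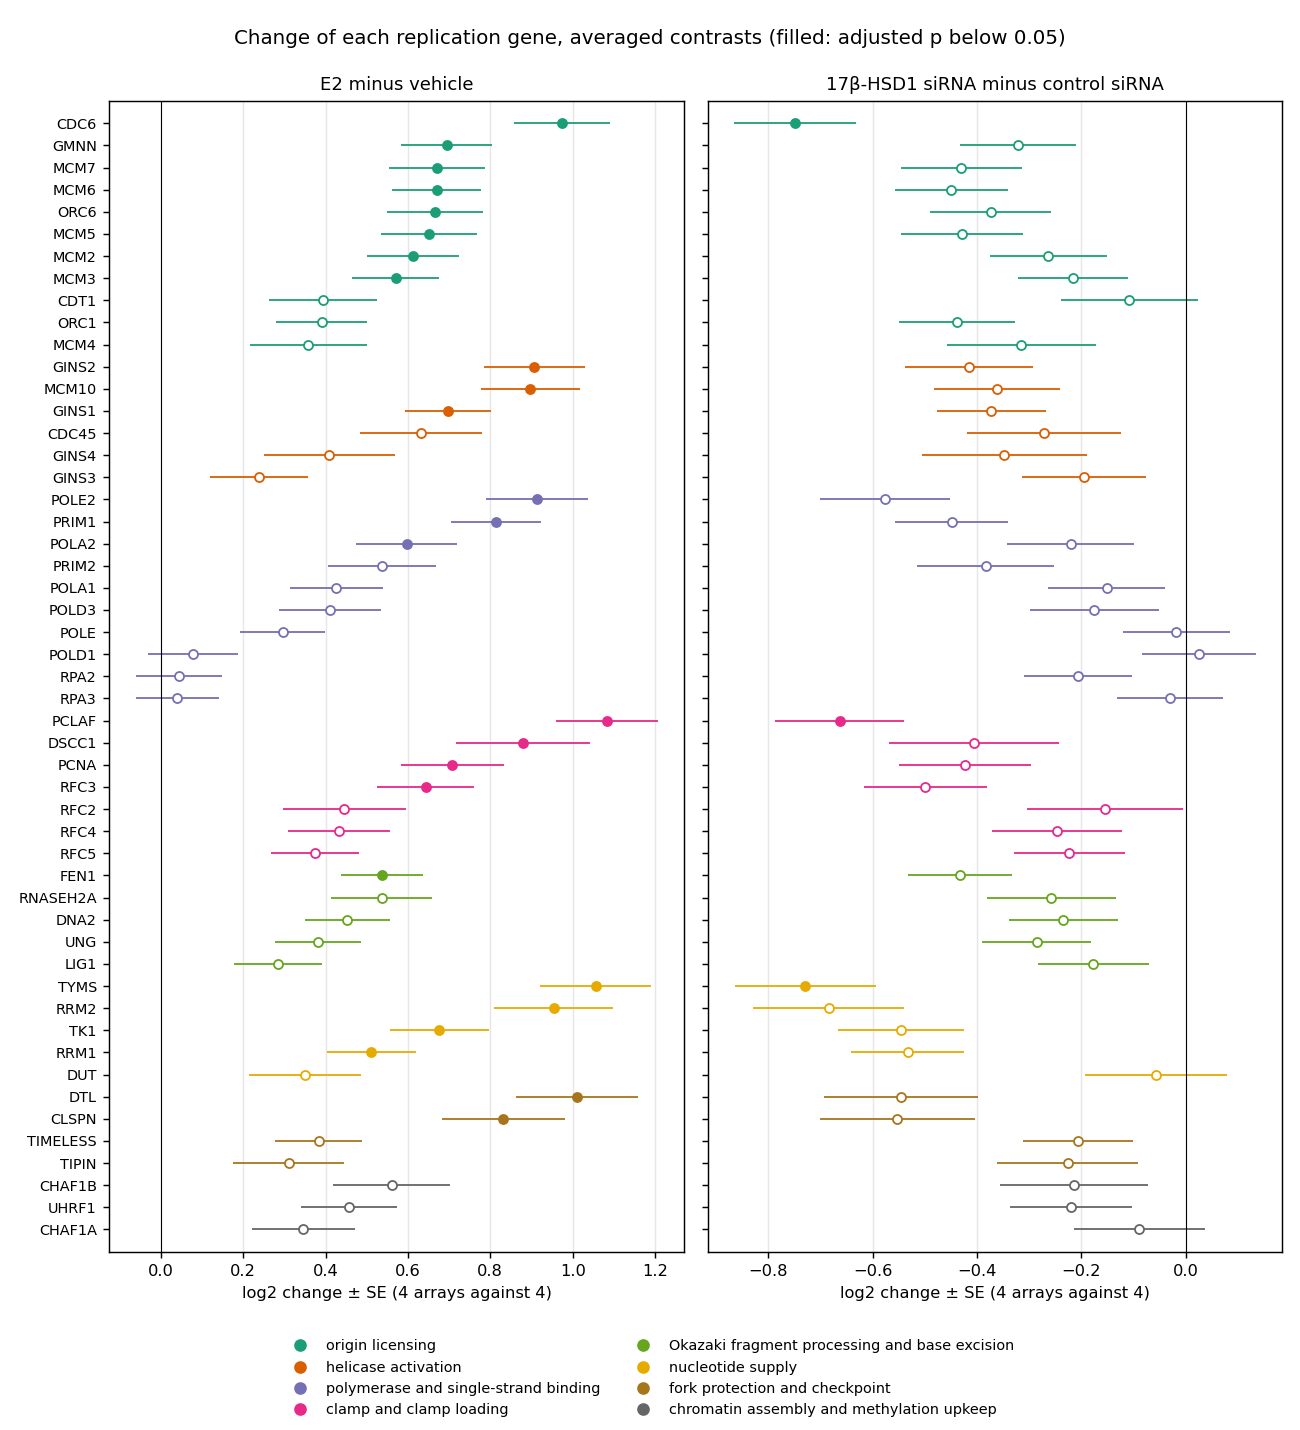
Log2 change of each of the 51 genes with its standard error, for E2 minus vehicle averaged over siRNAs (left) and 17β-HSD1 siRNA minus control siRNA averaged over media (right), grouped by role. Filled points passed the test: 25 genes on the left, all to the right of 0, and CDC6, PCLAF and TYMS on the right, where 50 of 51 points lie left of 0.

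17β-HSD1 siRNA lowered 3 of the 51 genes, averaged over both media, and raised none. These were CDC6, at 0.595-fold, TYMS, at 0.604-fold, and PCLAF, at 0.632-fold, and all 3 were also among those raised by E2. The other 48 did not pass the test. The median log2 change of the list was -0.32, with 50 negative values and 1 positive (POLD1, 0.03), against a median of 0.01 over all probe sets tested. The 3 called genes are set against 0.217% of all probe sets called lower and 0.24% called higher, and 28 of the 51 had an unadjusted p below 0.05, against 9.44% of all probe sets. For none of the 51 did the 4 silenced arrays all lie below the 4 control arrays, against 2.16% of all probe sets; for 50 of them an E2 array of silenced cells reached the lower vehicle array of control cells. Leaving out either array of 17β-HSD1 siRNA with E2 left 0 of the 51 genes and 0 of all 21214 probe sets called, and leaving out replicate 1 of control siRNA with vehicle left 0 genes and 0.137% of all probe sets. With all arrays 0.457% were called in either direction. A single gene was called without replicate 1 of 17β-HSD1 siRNA with vehicle (0.33% of all probe sets), replicate 2 of control siRNA with E2 (0.66%) or replicate 2 of control siRNA with vehicle (0.599%).

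Among the 11 licensing genes, E2 raised 8: CDC6, ORC6, GMNN, MCM2, MCM3, MCM5, MCM6 and MCM7. CDC6, an ATPase that helps load the MCM ring, had log2 signals of 8.85 and 8.76 with 17β-HSD1 siRNA in E2, 7.78 and 7.63 with 17β-HSD1 siRNA in vehicle, 9.24 and 9.62 with control siRNA in E2, and 8.50 and 8.66 with control siRNA in vehicle. The 4 groups did not overlap, and the silenced arrays in vehicle were the lowest. Its averaged changes were 0.97 ± 0.12 with E2 (adjusted p = 0.00252) and -0.75 ± 0.12 with 17β-HSD1 siRNA (adjusted p = 0.0222), the smallest p of the list in the siRNA comparison. MCM2, MCM3, MCM5, MCM6 and MCM7, subunits of the MCM ring, rose by similar amounts with E2, from 0.57 for MCM3 to 0.67 for MCM7. The remaining subunit, MCM4, changed by 0.36 ± 0.14 (adjusted p = 0.440), and its control arrays in vehicle differed widely, at 10.84 and 10.15. MCM5 had signals of 9.18 and 8.89 with 17β-HSD1 siRNA in E2 and 8.50 and 8.27 with 17β-HSD1 siRNA in vehicle, against 9.57 and 9.36 with control siRNA in E2 and 8.87 and 8.75 with control siRNA in vehicle. In both media the silenced MCM5 arrays were below the control ones, with an averaged siRNA change of -0.43 ± 0.12 (adjusted p = 0.173). Geminin, encoded by GMNN, binds CDT1 and prevents relicensing. GMNN rose by 0.69 ± 0.11 with E2 (adjusted p = 0.0098), while its partner CDT1 changed by 0.39 ± 0.13 (adjusted p = 0.272). ORC6 rose by 0.67 ± 0.12 (adjusted p = 0.0152), and ORC1, the cell cycle-regulated ATPase subunit of the recognition complex, changed by 0.39 ± 0.11 (adjusted p = 0.156). With 17β-HSD1 siRNA, CDC6 was the 1 licensing gene called, and the median of the 11 was -0.37.

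Of the 6 genes for helicase activation, E2 raised GINS2, MCM10 and GINS1, and the median change of the 6 was 0.66. GINS2 had signals of 9.85 and 9.83 with 17β-HSD1 siRNA in E2, 8.87 and 8.72 with 17β-HSD1 siRNA in vehicle, 9.97 and 10.26 with control siRNA in E2, and 9.15 and 9.55 with control siRNA in vehicle. All E2 arrays were above all vehicle arrays, and the change was 0.91 ± 0.12 (adjusted p = 0.00408). The GINS complex has a single copy of each of its 4 subunits. GINS1 rose by 0.70 ± 0.10 (adjusted p = 0.00731), GINS4 changed by 0.41 ± 0.16 (adjusted p = 0.411) and GINS3 by 0.24 ± 0.12 (adjusted p = 0.639). Differences between the subunit genes were not tested. GINS3 and GINS4 were also dimmer, averaging 7.27 and 7.65 over the arrays against 8.76 for GINS1 and 9.52 for GINS2. For GINS3 the signals were 7.47 and 7.08 with 17β-HSD1 siRNA in E2, 7.18 and 6.95 with 17β-HSD1 siRNA in vehicle, 7.52 and 7.47 with control siRNA in E2, and 7.19 and 7.26 with control siRNA in vehicle. Its E2 and vehicle arrays overlapped. MCM10, which stabilises the active helicase, rose by 0.90 ± 0.12 (adjusted p = 0.00408). CDC45, the helicase cofactor, changed by 0.63 ± 0.15 (adjusted p = 0.067). No helicase gene was called for 17β-HSD1 siRNA, where changes ran from -0.41 for GINS2 to -0.19 for GINS3.

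The 10 genes for polymerases, primase and single-strand binding had the lowest median change with E2 of the 8 roles, 0.42, and 3 were raised. These were PRIM1, the catalytic primase subunit (0.81 ± 0.11, adjusted p = 0.00392), POLA2, the accessory subunit of polymerase α (0.60 ± 0.12, adjusted p = 0.0359), and POLE2. POLE2, the accessory subunit of polymerase ε, had signals of 6.85 and 7.35 with 17β-HSD1 siRNA in E2, 6.18 and 6.17 with 17β-HSD1 siRNA in vehicle, 7.61 and 7.73 with control siRNA in E2, and 6.82 and 6.71 with control siRNA in vehicle. It rose by 0.91 ± 0.12 with E2 (adjusted p = 0.00425), and with 17β-HSD1 siRNA the value was -0.58 ± 0.12 (adjusted p = 0.086). POLE, the catalytic subunit of the same enzyme, stood at 9.34 and 9.13 with 17β-HSD1 siRNA in E2, 8.87 and 8.92 with 17β-HSD1 siRNA in vehicle, 9.16 and 9.26 with control siRNA in E2, and 8.95 and 8.97 with control siRNA in vehicle. Its E2 arrays lay above its vehicle arrays, but the change of 0.30 ± 0.10 did not pass (adjusted p = 0.302), and the siRNA value was -0.02 ± 0.10. POLA1, the catalytic subunit of polymerase α, changed by 0.43 ± 0.11 with E2 (adjusted p = 0.115), and the primase partner PRIM2 by 0.54 ± 0.13 (adjusted p = 0.083). The smallest values were those of the single-strand binding subunits RPA2 (0.04 ± 0.10) and RPA3 (0.04 ± 0.10) and of POLD1, the catalytic subunit of polymerase δ (0.08 ± 0.11). RPA3 signals lay between 8.02 and 8.20 on all 8 arrays.

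**Figure D2:**
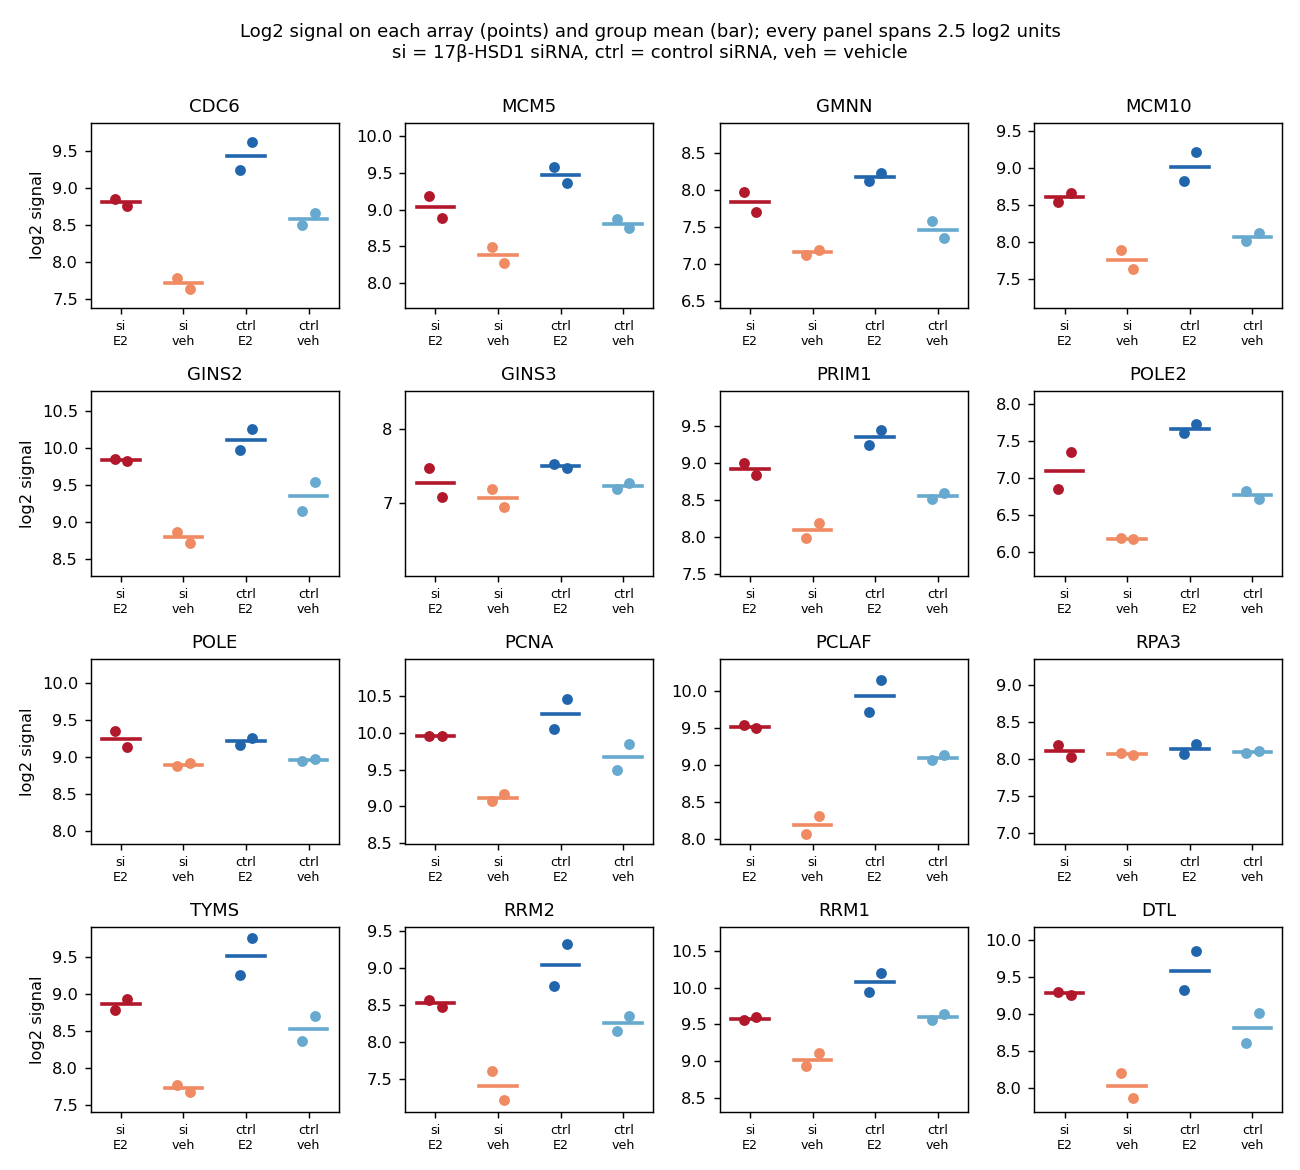
Log2 signal of 16 of the genes on each array (points) with the group mean (bar), for silenced cells in E2 and in vehicle and control cells in E2 and in vehicle. CDC6, PCLAF, TYMS and RRM2 show the widest spread between group means among the 16, while the RPA3 arrays lie between 8.02 and 8.20.

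Clamp and clamp loader genes had a median change of 0.64 with E2, and 4 of 7 were raised. PCLAF, a PCNA-bound factor with a role in replication past lesions, had the largest E2 change of the list. Its signals were 9.53 and 9.50 with 17β-HSD1 siRNA in E2, 8.06 and 8.31 with 17β-HSD1 siRNA in vehicle, 9.71 and 10.15 with control siRNA in E2, and 9.06 and 9.13 with control siRNA in vehicle. The vehicle arrays of silenced cells stood apart below the rest. The averaged changes were 1.08 ± 0.12 with E2 (adjusted p = 0.00226) and -0.66 ± 0.12 with 17β-HSD1 siRNA (adjusted p = 0.0474). A second, dimmer PCLAF probe set gave 0.59 with E2 (adjusted p = 0.0197) and -0.53 with siRNA (adjusted p = 0.0684), so the siRNA call held on 1 of its 2 probe sets. PCNA itself had 9.95 and 9.96 with 17β-HSD1 siRNA in E2 and 9.07 and 9.16 with 17β-HSD1 siRNA in vehicle, against 10.05 and 10.45 with control siRNA in E2 and 9.49 and 9.84 with control siRNA in vehicle. PCNA rose by 0.71 ± 0.13 with E2 (adjusted p = 0.0164). Among the small subunits of the RFC loader, RFC3 rose by 0.64 ± 0.12 (adjusted p = 0.0203), whereas RFC2, RFC4 and RFC5 had values of 0.45, 0.43 and 0.37 and did not pass. DSCC1, a subunit of the alternative loader that acts in sister chromatid cohesion, rose by 0.88 ± 0.16 (adjusted p = 0.0209). In the siRNA comparison PCLAF was the 1 clamp gene called, and RFC3 had -0.50 ± 0.12 (adjusted p = 0.114).

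Nucleotide supply genes had the highest median change with E2 (0.68) and the lowest with 17β-HSD1 siRNA (-0.55) among the 8 roles. These medians of 3 to 11 genes were not tested against each other. Genes of this function outside the list had smaller medians. They were 0.27 and -0.14 for 12 other genes of deoxynucleotide synthesis and salvage, and 0.27 and -0.20 for 17 of purine and pyrimidine base synthesis. Of the 5 nucleotide supply genes in the list, E2 raised 4. TYMS, which makes thymidylate, had signals of 8.79 and 8.93 with 17β-HSD1 siRNA in E2, 7.77 and 7.68 with 17β-HSD1 siRNA in vehicle, 9.26 and 9.76 with control siRNA in E2, and 8.36 and 8.71 with control siRNA in vehicle. The groups did not overlap, and the order from high to low was control siRNA with E2, silenced with E2, control siRNA with vehicle, silenced with vehicle. TYMS rose by 1.06 ± 0.13 with E2 (adjusted p = 0.00324), and with 17β-HSD1 siRNA it fell by 0.73 ± 0.13 on the log2 scale (adjusted p = 0.0465). RRM2, the regulatory subunit of ribonucleotide reductase that accumulates in S phase, had 8.57 and 8.47 with 17β-HSD1 siRNA in E2 and 7.60 and 7.21 with 17β-HSD1 siRNA in vehicle, against 8.76 and 9.32 with control siRNA in E2 and 8.16 and 8.35 with control siRNA in vehicle. It rose by 0.95 ± 0.14 with E2 (adjusted p = 0.00744), and its siRNA value was -0.68 ± 0.14 (adjusted p = 0.0773). For RRM1, the catalytic subunit, the E2 change of 0.51 ± 0.11 (adjusted p = 0.042) and the siRNA value of -0.53 ± 0.11 (adjusted p = 0.0652) were of nearly equal size. Whether this proportion differed from that of RRM2 was not tested. The silenced RRM1 arrays in E2, at 9.56 and 9.60, overlapped the control RRM1 arrays in vehicle, at 9.56 and 9.64. TK1, the S phase thymidine kinase, rose by 0.68 ± 0.12 with E2 (adjusted p = 0.0168), with -0.55 ± 0.12 for siRNA (adjusted p = 0.0928). DUT, which hydrolyses dUTP, did not pass in either comparison (0.35 ± 0.14 with E2 and -0.06 ± 0.14 with siRNA).

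Of the 5 genes for Okazaki fragment processing and base excision, E2 raised FEN1, the flap endonuclease (0.54 ± 0.10, adjusted p = 0.0207). FEN1 replicates were close: 9.83 and 9.80 with 17β-HSD1 siRNA in E2, 9.37 and 9.27 with 17β-HSD1 siRNA in vehicle, 10.30 and 10.28 with control siRNA in E2, and 9.77 and 9.64 with control siRNA in vehicle. In both media the silenced arrays were below the control ones. The ribonuclease RNASEH2A and the nuclease-helicase DNA2 had values of 0.54 (adjusted p = 0.0639) and 0.45 (adjusted p = 0.0616). Uracil glycosylase UNG had 0.38 and DNA ligase LIG1 had 0.28. In the fork protection and checkpoint group, DTL (1.01 ± 0.15, adjusted p = 0.00619) and CLSPN, the claspin adaptor that activates CHK1 (0.83 ± 0.15, adjusted p = 0.0169), rose with E2. TIMELESS and TIPIN, which form the fork protection complex, also had positive values, 0.38 and 0.31, but did not pass. Differences between these genes were not tested. None of the 3 chromatin genes was called: CHAF1A and CHAF1B, subunits of the histone chaperone CAF-1, had 0.35 and 0.56, and UHRF1, which carries DNA methylation through replication, had 0.46. The second, dimmer probe set of UHRF1 gave -0.10 (adjusted p = 0.976) and that of CLSPN gave 0.53 (adjusted p = 0.108), so these genes' probe sets differed. None of the genes in these 3 roles was called for 17β-HSD1 siRNA.

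The level of the whole list on each array followed both treatments. Each gene was centred on its mean over the 8 arrays, and the median over the 51 genes was 0.15 and 0.07 with 17β-HSD1 siRNA in E2, -0.44 and -0.38 with 17β-HSD1 siRNA in vehicle, 0.36 and 0.53 with control siRNA in E2, and -0.15 and -0.05 with control siRNA in vehicle. Control siRNA with E2 had the highest group mean for 50 of the 51 genes, and 17β-HSD1 siRNA with vehicle had the lowest for 47. The full order, control siRNA with E2 above silenced with E2 above control siRNA with vehicle above silenced with vehicle, was seen in 44 genes. Shares of all probe sets with these orders were not counted, so how unusual they are was not tested. The median difference between replicates 1 and 2 of control siRNA with E2 was -0.23, with replicate 1 higher in 12 of 51 genes; in the other groups it was 0.09, -0.03 and -0.08.

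**Figure D3:**
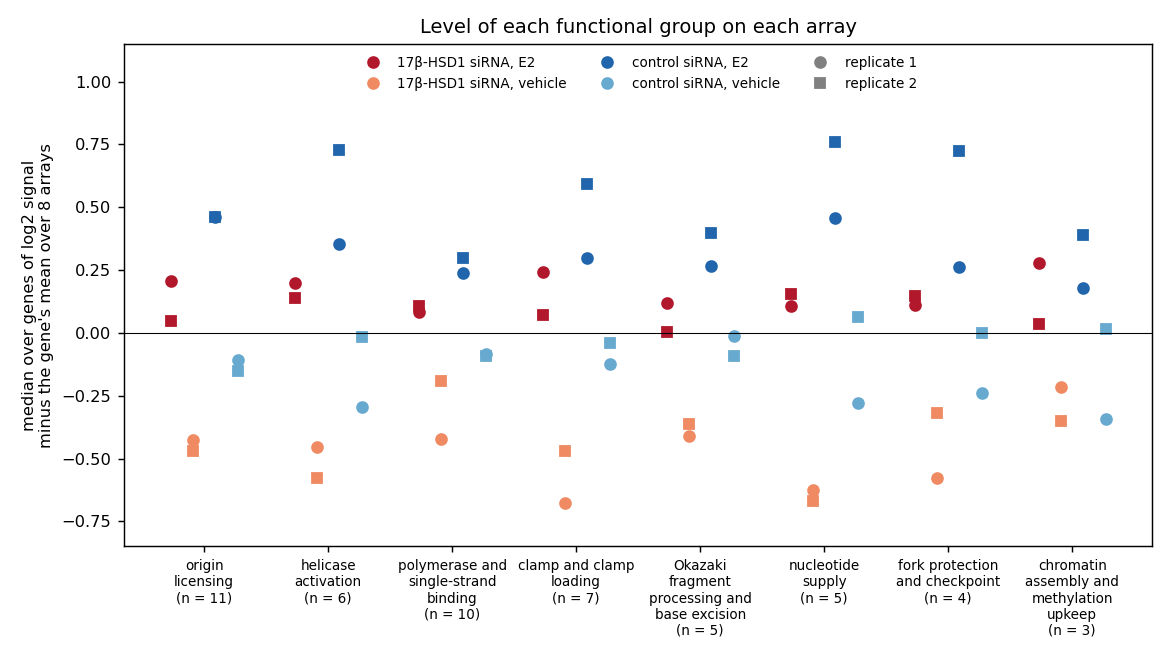
Median over the genes of each role of the log2 signal minus the gene's mean over the 8 arrays, 1 point per array (circles replicate 1, squares replicate 2). In the licensing group the silenced arrays lie at 0.20 and 0.05 in E2 and at -0.43 and -0.47 in vehicle, against control arrays at 0.46 and 0.46 in E2 and -0.11 and -0.15 in vehicle.

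The E2 response was then taken within each siRNA. In cells with 17β-HSD1 siRNA, E2 raised 5 genes, CDC6 (1.10 ± 0.17, adjusted p = 0.0278), PCLAF (1.33 ± 0.17, adjusted p = 0.0245), TYMS (1.13 ± 0.19, adjusted p = 0.0426), GINS2 (1.05 ± 0.17, adjusted p = 0.0411) and DTL (1.25 ± 0.21, adjusted p = 0.0426), where 0.269% of all probe sets were called higher. In cells with control siRNA, 0 of the 51 were called by limma, although 36 had an unadjusted p below 0.05 (5.94% of all probe sets), and 0.0707% of all probe sets were called higher and 0.0141% lower. The lowest adjusted p there was 0.0683, for MCM10 (0.95). The median change was 0.55 with either siRNA, both E2 arrays lay above both vehicle arrays for 46 genes with 17β-HSD1 siRNA and 45 with control siRNA (12.6% and 16.6% of all probe sets), and the change was larger in silenced cells for 31 genes and in control cells for 20. Across the 51 genes these responses, which share no array but share the probes and the deposited normalization, had a Pearson r of 0.82 and a Spearman rho of 0.83, as a description over genes that are not independent. The test of the difference itself called 0 genes by limma, with 0 of 51 at an unadjusted p below 0.05. Differences ranged from -0.37 for CDT1 to 0.49 ± 0.25 for PCLAF (unadjusted p = 0.0699), so a difference between the siRNAs was not shown for any of the genes, including the 5 called in silenced cells.

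The siRNA change within each medium passed the test for 0 genes by limma, in E2 (17 at an unadjusted p below 0.05, against 4.61% of all probe sets, lowest adjusted p 0.487) and in vehicle (20, against 5.45%, lowest adjusted p 0.203). No tested probe set was called in either (0%). Medians were close, -0.30 in E2 and -0.31 in vehicle. In E2 both silenced arrays lay below both control arrays for 34 genes (20% of all probe sets), and in vehicle for 39 (12.1%). Among genes picked out for their gap between media, DTL, PCLAF and RRM2 had lower values in vehicle (-0.79, -0.91 and -0.85) than in E2 (-0.30, -0.42 and -0.52), while CLSPN and ORC1 had lower values in E2 (-0.67 and -0.61) than in vehicle (-0.43 and -0.27). These gaps are the interaction seen from the other side, and none passed. Over the 51 genes the changes in the 2 media had a Pearson r of 0.65 and a Spearman rho of 0.69, again as a description.

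**Figure D4:**
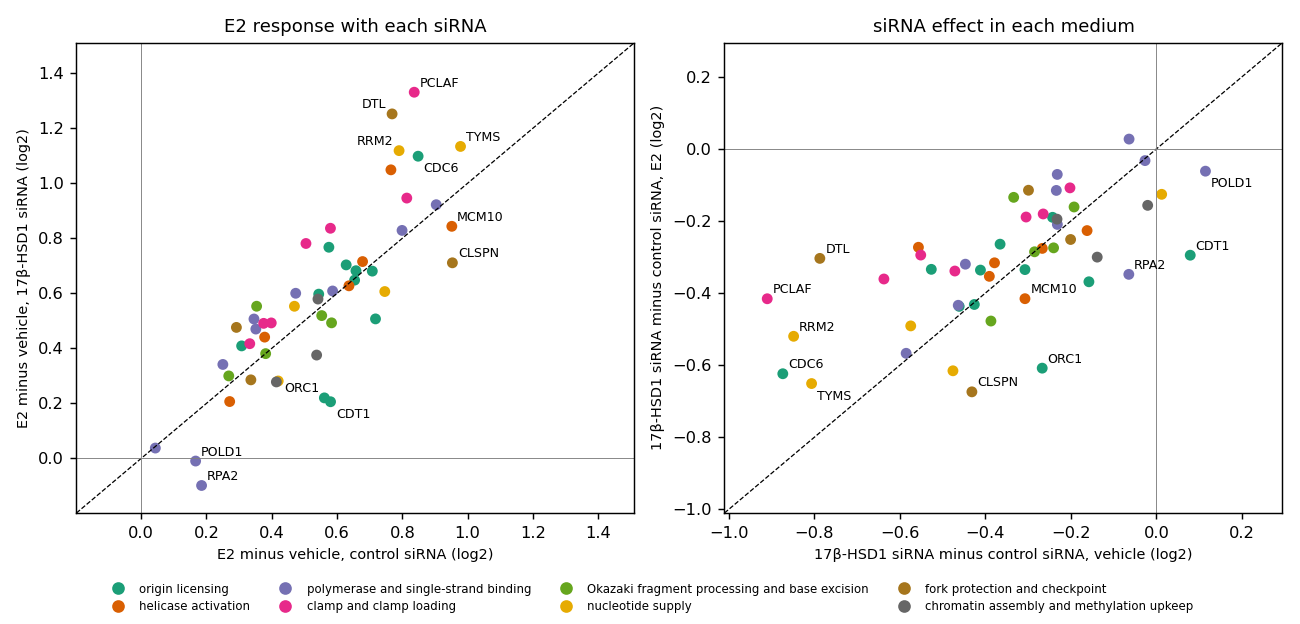
Log2 change of each gene with E2 in silenced cells against control cells (left) and with 17β-HSD1 siRNA in E2 against vehicle (right); the dashed line marks equal change and colours mark roles. On the left 31 points lie above the line and 20 below, and PCLAF is highest, at 1.33 in silenced cells and 0.84 in control cells.

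RefSeq promoter windows were matched for 43 of the 51 genes, 13 of them with more than 1 window. No entry was matched for MCM4, MCM5, GINS4, POLD3, RPA2, RPA3, DSCC1 and DNA2. An E2F-type match occurred in 26 of the 61 windows (42.6%), against 1164 of all 35116 windows of the same length (3.3%). By gene, 25 of the 43 had such a match, against 1090 of all 27305 genes (4.0%). E2 raised 16 of the 25 (median change 0.64) and 7 of the 18 without a match (median 0.54), a difference that was not tested. A match was held by 7 of 9 licensing genes, 3 of 4 fork protection and checkpoint genes and 1 of 3 chromatin genes. It was held by 2 of 5 nucleotide supply genes, where RRM2, RRM1 and TK1 had none. These small counts were not tested against each other. The letters CCAAT occurred on either strand in 35 of the 61 windows (57.4%, against 34.6% of all), 3 times in that of CDC6 and 4 times in that of PCLAF printed above, and in neither orientation in that of TYMS. The cell cycle homology letters TTTGAA or TTCGAA were in 4 of 61 windows (6.6%, against 16.4% of all). The palindromic estrogen response element, GGTCA and TGACC 3 bases apart, was in 0 of 61 windows and in 20 of all 35116 (0.057%). Matches of different motifs were counted separately, also where they overlapped. These are matches of letters within 300 bases and show no binding.

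A list of 66 other replication and nucleotide genes, 63 of them measured, had smaller median changes than the 51. The difference was not tested, and both lists were chosen with earlier results of these data known. E2 raised 5 and lowered none, with a median of 0.28: TICRR, which brings CDC45 to the ring (0.87 ± 0.12, adjusted p = 0.00554), ATAD5, which unloads PCNA (0.83 ± 0.13, adjusted p = 0.00816), topoisomerase TOP2A (0.91 ± 0.17, adjusted p = 0.0215), WDHD1, which links helicase and polymerase α (0.60 ± 0.11, adjusted p = 0.0229), and the histone chaperone ASF1B (0.59 ± 0.12, adjusted p = 0.0377). 17β-HSD1 siRNA lowered 1, POLE3, a histone-fold subunit of polymerase ε, with a list median of -0.20. The siRNA values were negative for 55 genes and positive for 8, and the highest, 0.75, did not pass. Of all probe sets, 1.32% were called higher with E2 and 0.217% lower with 17β-HSD1 siRNA. POLE3 had 8.48 and 8.33 with 17β-HSD1 siRNA in E2 and 8.04 and 8.23 with 17β-HSD1 siRNA in vehicle, against 9.54 and 9.40 with control siRNA in E2 and 9.05 and 8.82 with control siRNA in vehicle. All its silenced arrays were below all its control arrays, unlike those of the 51 genes, and its change was -0.93 ± 0.11 (adjusted p = 0.0104), with 0.40 ± 0.11 for E2 (adjusted p = 0.140). The 4 subunits of polymerase ε gave siRNA values of -0.93 for POLE3, -0.58 for POLE2, -0.23 for POLE4 (adjusted p = 0.558) and -0.02 for POLE, of which that of POLE3 passed; POLE4 is named to complete the enzyme, after its value was seen. The next smallest p-values of the list in the siRNA comparison belonged to RRM2B, the p53-inducible reductase subunit (-0.54 ± 0.13, adjusted p = 0.118), and IMPDH2, of guanine nucleotide synthesis (-0.47 ± 0.12, adjusted p = 0.151).

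A list of 15 regulators held E2F and RB family genes, E2F partners, MYBL2 and FOXM1. Among them, E2 raised FOXM1 (0.95 ± 0.14, adjusted p = 0.00783), E2F7 (0.74 ± 0.11, adjusted p = 0.00812) and MYBL2 (0.95 ± 0.17, adjusted p = 0.0164), where 1.32% of all probe sets were called higher. The list median was 0.40. FOXM1 and MYBL2 activate later cell cycle genes and E2F7 is a repressor that is itself an E2F target. FOXM1 signals were 9.49 and 9.45 with 17β-HSD1 siRNA in E2, 8.73 and 8.31 with 17β-HSD1 siRNA in vehicle, 9.63 and 10.09 with control siRNA in E2, and 8.73 and 9.11 with control siRNA in vehicle. None of the 15 was called for 17β-HSD1 siRNA by limma, 7 had an unadjusted p below 0.05 (9.44% of all probe sets), and the median was -0.26. The smallest p-values there belonged to TFDP1, the DNA-binding partner of E2F proteins (-0.42, adjusted p = 0.174), E2F3 (-0.38, adjusted p = 0.178) and E2F7 (-0.36, adjusted p = 0.264).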

How the data were processed

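Expression in 8 samples of T47D cells was read on Affymetrix Human Gene 1.0 ST arrays. The deposited table of the authors holds log2 values for 33297 probe sets, a scale read from the values; the steps before it (summarisation, background, normalization) are not given in the sources used, and values were tested as deposited. Array medians lay between 7.25 and 7.37. Names came from the platform annotation, where 19460 had 1 symbol, 1754 several and 12083 none. Only single-symbol probe sets gave a gene its name. The 21214 with a symbol were tested with limma 3.58.1 in R 4.3.3 (1 coefficient per group, eBayes, 4 residual degrees of freedom, two-sided), with Benjamini-Hochberg adjustment and a threshold of 0.05. Changes are log2 differences ± SE, and folds are 2 to that power.

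The genes, lists, roles and motifs were chosen with earlier results of these data known. All genes of the list, called members of the other lists and the 3 smallest p-values per list were nameable; the printed promoters were chosen after their values were seen. The labels describe 2 independent culture experiments and number the replicates, but do not say that a number marks an experiment, so arrays were not treated as paired. The alternatives left out dim probe sets or used other sets of probe sets, quantile normalization, a trended robust spread, the replicate block, fits on 4 arrays, or all arrays but 1. The procedure was tested on simulated data.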

Additional observations from a re-analysis of the deposited data

How the results depend on the processing

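The alternatives changed how many genes were called more than they changed directions. Over all probe sets of the table, including those with no symbol, E2 called 8 of the 51 genes averaged over siRNAs and 0 in silenced cells, 17β-HSD1 siRNA called 0, and the other replication list had 1 call for E2 and 0 for siRNA; this adds unnamed probe sets to the adjustment. Quantile normalization left 1 call for siRNA and 2 for E2 in silenced cells. Shares over all probe sets are not given for these settings, so a loss of calls in the list cannot be told from a general one. Arrays with the same number are not stated to share an experiment, and their deviations from the group means correlated at -0.20, 0.01, 0.31, 0.31, 0.42 and 0.44 over the 6 pairs of groups. With the replicate block, siRNA called 7 genes (0.618% of all probe sets called lower), E2 called 10 in silenced cells and 8 in control cells (0.509% and 0.42% called higher), and the other replication list had 8 calls for E2 and 2 for siRNA (1 higher, 1 lower). The averaged E2 count with the block was 29 (1.85% of all probe sets called higher), and no other call of the lists counted here moved by over 1.5 times. Leaving out 1 array at a time gave 10 to 24 calls for averaged E2, 0 to 4 for averaged siRNA, 0 to 6 for E2 in silenced cells (0 without any 1 of its 4 arrays, where 0 of all 21214 probe sets were called), 1 to 6 for E2 in the other list and 0 to 2 for siRNA there. CDC6, MCM10, GINS2, PRIM1, POLE2, PCLAF and TYMS were called for averaged E2 in all 15 settings. For siRNA no gene was: CDC6 was called in 11, PCLAF in 7 and TYMS in 6. Median changes stayed at 0.49 to 0.60 for E2 and -0.35 to -0.26 for siRNA when single arrays were left out. Signs turned in some setting for 7 changes, none of them called. With single arrays left out, the siRNA change ran from -0.0725 to 0.0354 for POLE (0.0163 after quantile normalization), from -0.0401 to 0.0928 for POLD1, from -0.0698 to 0.0104 for RPA3, from -0.1791 to 0.0650 for DUT, from -0.3117 to 0.0012 for RFC2 and from -0.1779 to 0.0007 for CHAF1A, and the E2 change from -0.0015 to 0.0883 for RPA2. The cause of these shifts was not tested. Groups of 2 arrays, an unstated normalization and a targeted gene that missed the threshold limit what the siRNA comparison can show.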
